A study of Bos taurus with 24 samples.

Results

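Monocyte-derived macrophages (MDMs) of 6 Holstein cows were compared 18 h after exposure to E. coli, 3 cows of the high responder group against 3 of the low responder group, without correction for control wells. The members are the 6 exposed libraries of 18 h, picked from the 24 libraries of the series by their labels alone, so that no measured value entered the choice. The phenotype had been assigned by the nitric oxide (NO) that MDMs of each cow released after exposure to E. coli in an earlier assay, and the cows of both groups were lactating females. All wells held macrophages grown from blood monocytes for 6 days with GM-CSF at 5 ng/ml, and the exposed wells received paraformaldehyde-inactivated E. coli at a multiplicity of infection of 5. Each exposed library is 1 well of 1 cow. Ages of the cows were not given in the sources used here. The control wells of the same cows at 18 h and the exposed wells of 3 h, each again 3 high against 3 low responder libraries, are set beside the main comparison.

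Macrophages detect Gram-negative bacteria through receptors such as TLR4 with its co-receptor CD14, and signal through NF-kB to cytokine, chemokine and inducible nitric oxide synthase genes. A separate arm induces type I interferon, which acts back on the cell to raise the interferon-stimulated genes. Activated macrophages also shift towards glycolysis, remodel lipid handling and assemble the NADPH oxidase, which, with NO, makes up the oxidative burst. The question of the comparison was how the transcriptomes of the phenotypes stood apart once both had met the bacterium.

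The libraries are named by phenotype and the number of their library code: high 91, high 93, high 94, low 91, low 92 and low 94. The number is shared by different cows of the 2 phenotypes, and no libraries were paired by it in the main comparison. Totals were 9160064 to 13552456 expected counts in the high and 13826986 to 14962894 in the low responder libraries, and high 94 had the lowest total. The correlation of log2 CPM across genes, which are not independent replicates, was 0.962 to 0.976 within a phenotype and 0.937 to 0.975 between phenotypes. The first principal component carried 43.1% of the variance and placed the high responder libraries at -12.5, -16.8 and -48.9 and the low responder libraries at 19.6, 42 and 16.6, and high 94 and low 92 were its ends. Over the 11210 genes tested, both were often extreme in either direction. High 94 held the lowest of the 6 values in 26.5% and the highest in 23.1%. For low 92 the highest was held in 24.3% and the lowest in 21.7%. Of 21 macrophage markers, 8 had an identifier, and CD68, CTSS, FCER1G and CD74 were each at 352 TPM or more in every library, TPM being transcripts per 1000000. MSR1, CD14, AIF1 and PTPRC were lower, from 15.5 TPM for MSR1 in high 94 to 233 TPM for PTPRC in high 94. The summed level of the 8 was 8710 to 9470 TPM in high and 7500 to 8890 TPM in low responder libraries. The 10 markers of B cells, NK cells, neutrophils, dendritic cells and of fibroblasts, endothelium and epithelium that had an identifier summed to at most 14.7 TPM per cell type, and the epithelial keratins KRT8 and KRT18 were listed at 0 in all 6 libraries. They were 2 of 10 listed for B cells, 1 of 10 for NK cells and 1 of 11 each for neutrophils and dendritic cells. For fibroblasts, endothelium and epithelium they were 5 of 13, so most markers could not be looked up. Markers of T cells, platelets and red cells had no identifier here, and their part in the results was not tested. In whole wells, fewer cells of a type and less RNA per cell cannot be told apart.

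**Figure D1:**
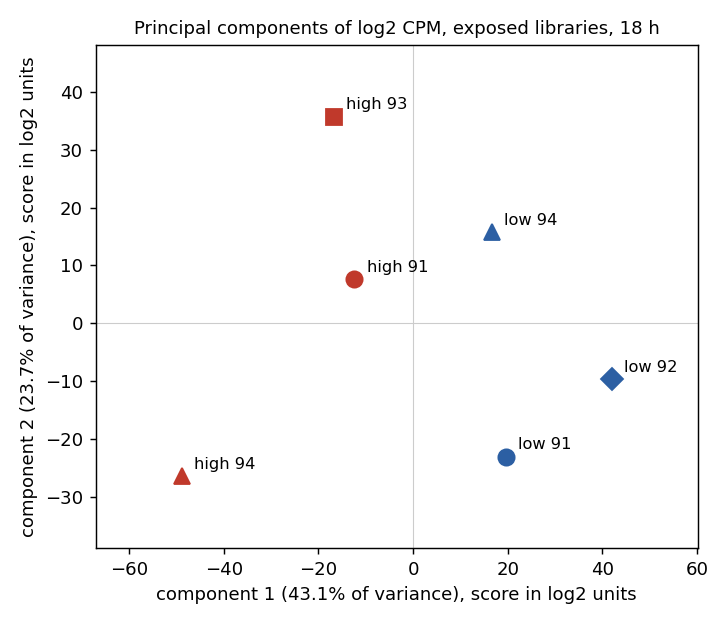
Scores of the 6 exposed libraries of 18 h on the first (x axis, 43.1% of variance) and second (y axis, 23.7%) principal component of log2 CPM. Each point is 1 library, red for high and blue for low responders; the phenotypes separate on the first component, from -48.9 for high 94 to 42 for low 92.

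Counts were scaled with TMM factors to counts per 1000000 of a library (CPM), and the quasi-likelihood test of edgeR was applied to each gene. Differentially expressed (DE) genes were those past 2 limits, a p adjusted by Benjamini-Hochberg of less than 0.05 and a fold change of more than 1.5 either way. Log2 fold changes are high minus low responders, and SE is their standard error. Values per library are always given as CPM in the order high 91, high 93, high 94, then low 91, low 92, low 94. In exposed MDMs at 18 h, 5 of 11210 genes (0.0446%) were DE, 3 of them higher (0.0268%) and 2 lower (0.0178%) in the high responder group. The 4 of these genes described here have no symbol. An unadjusted p below 0.05 was reached by 2041 genes (18.2%), of which 1092 (9.74%) had a positive log2 fold change and 949 (8.47%) a negative one, and an adjusted p below 0.1 by 256 (2.28%). The number called depended on the model: DESeq2 called 641 genes on the same libraries, limma-voom called 0, and a fit that estimated the spread over all 12 libraries of 18 h called 301. That fit had no term for each cow, so the control and exposed wells of a cow counted as independent. Leaving out low 92 left 0 calls, with 1255 genes at an unadjusted p below 0.05, and leaving out low 94 raised the number to 52.

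**Figure D2:**
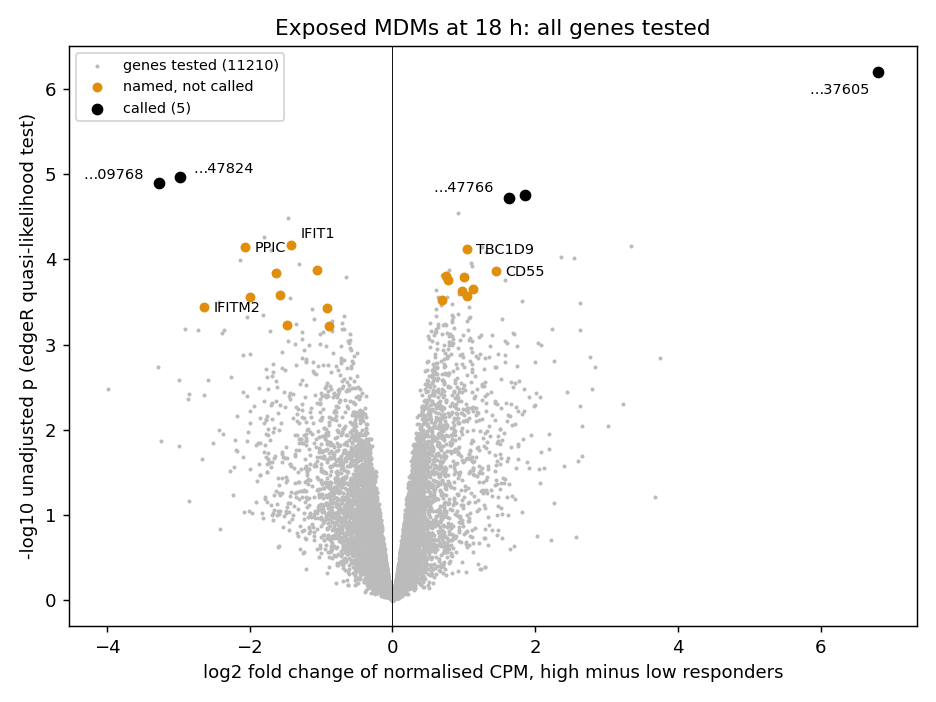
Log2 fold change of normalised CPM, high minus low responders (x axis), against the -log10 unadjusted p of edgeR's quasi-likelihood test (y axis) for the 11210 genes tested in exposed MDMs at 18 h. Black points are the 5 DE genes (4 of them labelled with the last 5 digits of their identifiers), and orange points are the genes named by rule that were not called.

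ENSBTAG00000037605 had 45.02, 102 and 74.1 CPM in high and 1.08, 0.462 and 0.397 CPM in low responders. The groups did not overlap, as the rule for naming genes required. For ENSBTAG00000037605, the log2 fold change was 6.80 (adjusted p = 0.00709, SE 0.45). It was close to silent in all 3 low responder cows, where 17, 7 and 6 counts stood against 587, 1206 and 626 in the high responder cows. Of the 6 fits with 1 library left out, only the one without low 92 lost its call, with an adjusted p of 0.128. ENSBTAG00000047766 was also higher in the high responder group, with 31.4, 37.9 and 41.6 CPM in the high responder group against 13.6, 9.58 and 12.4 CPM in the low responder group. The test of ENSBTAG00000047766 gave a log2 fold change of 1.63 (adjusted p = 0.042, SE 0.17).

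The other direction held 2 DE genes, lower in the high responder group. ENSBTAG00000009768 had 10.6, 8.35 and 5.92 CPM in the high and 94.5, 99.6 and 48.5 CPM in the low responder libraries. ENSBTAG00000009768 had a log2 fold change of -3.27 (adjusted p = 0.042, SE 0.33). Its highest high responder library stayed below its lowest low responder library by more than 4 times. ENSBTAG00000047824, a gene of low level, had 0.614, 0.759 and 0.829 CPM in high and 5.64, 5.02 and 6.62 CPM in low responders. For ENSBTAG00000047824, the log2 fold change was -2.97 (adjusted p = 0.042, SE 0.29). With 1 library left out, ENSBTAG00000047766, ENSBTAG00000009768 and ENSBTAG00000047824 were called only without low 94.

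Next to the DE genes stood genes that did not overlap between the groups and had the smallest p among those with a symbol. Non-overlap as such was common, with 1409 genes (12.6%) above and 1396 (12.5%) below in all high responder libraries, together 25%. With a positive log2 fold change they were TBC1D9, CD55, RHOG, ELL2, AGTRAP, KLF10, XDH, NEDD4 and IL4R, at adjusted p between 0.0603 and 0.0755. CD55 (ENSBTAG00000006984), the decay-accelerating factor that protects cells from complement, had 388, 503 and 494 CPM in the high responder group against 165, 127 and 213 CPM in the low responder group. The test of CD55 gave a log2 fold change of 1.45 (adjusted p = 0.0603, SE 0.21). TBC1D9 (ENSBTAG00000018951), a protein with a TBC domain of the kind that regulates Rab GTPases, had 811, 903 and 984 CPM in the high and 491, 400.1 and 422 CPM in the low responder libraries. TBC1D9 had a log2 fold change of 1.04 (adjusted p = 0.0603, SE 0.13). XDH (ENSBTAG00000012519), xanthine dehydrogenase, which makes uric acid and can make superoxide, was an abundant member with 1021, 1329 and 1213 CPM in high and 561, 565 and 687 CPM in low responders. For XDH, the log2 fold change was 0.98 (adjusted p = 0.073, SE 0.15). The remaining 6, among them the GTPase gene RHOG, the elongation factor gene ELL2 and the interleukin-4 receptor gene IL4R, had log2 fold changes between 0.70 and 1.13.

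With a negative log2 fold change the same rule gave IFIT1, PPIC, RTP4, CPM, UCHL1, ATP6V0E2, IFITM2, GINS1, TRIM47 and MANF, at adjusted p between 0.0603 and 0.0803. PPIC (ENSBTAG00000001568), a cyclophilin that isomerises proline bonds, had 3.45, 3.46 and 2.13 CPM in the high responder group against 13.8, 14.6 and 9.79 CPM in the low responder group. The test of PPIC gave a log2 fold change of -2.06 (adjusted p = 0.0603, SE 0.27). The gene named CPM (ENSBTAG00000013496), which encodes carboxypeptidase M, a membrane peptidase that appears as monocytes become macrophages, had 124, 96.4 and 66.0 CPM in the high and 246, 331 and 309 CPM in the low responder libraries. Carboxypeptidase M had a log2 fold change of -1.63 (adjusted p = 0.0603, SE 0.23). UCHL1 (ENSBTAG00000005078), a ubiquitin hydrolase, had 18.6, 29.6 and 25.1 CPM in high and 92.3, 52.0 and 74.8 CPM in low responders. For UCHL1, the log2 fold change was -1.58 (adjusted p = 0.073, SE 0.25). In each of these 3 genes every low responder library stood above every high responder library, which the rule that named them required. The DNA replication gene GINS1, the endoplasmic reticulum stress factor gene MANF, the proton pump subunit gene ATP6V0E2 and the E3 ligase gene TRIM47 had log2 fold changes of -0.91, -0.89, -1.99 and -1.47.

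**Figure D3:**
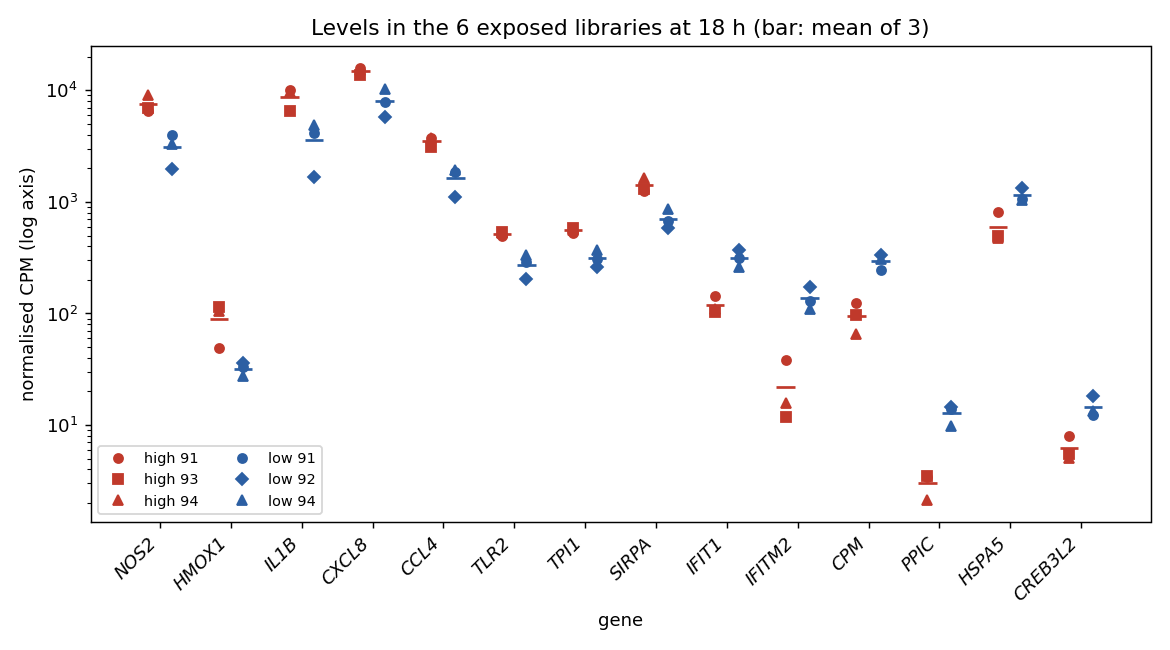
Normalised CPM on a log axis (y axis) of 14 genes (x axis) in the 6 exposed libraries of 18 h. Points are single libraries with a shape per library code, red for high and blue for low responders, and bars are means of 3. The 14 genes were picked for display, and none overlaps between the groups. For IFIT1, IFITM2, CPM and PPIC the naming rule required this, and 25% of all genes tested did not overlap. Members of the same lists that overlapped, such as CCL5, CYBB and ISG15, are not shown.

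The gene lists that follow were described by counts and medians. Only 2233 of the genes tested had a symbol. The tables that supplied symbols were partly ordered by the p of the authors' comparison, which used the same libraries and corrected for control wells. Genes with a symbol were therefore richer in differences: 30.9% of them had an unadjusted p below 0.05. Of those whose symbol came from the tables' part in identifier order, 17.4% did. At an unadjusted p below 0.05, 19.1% of genes with a symbol had a positive and 11.8% a negative log2 fold change. These shares stand beside the counts of list members but are not a neutral background. The counts are description only. The median log2 fold change was -0.02 over all genes tested and 0.02 over genes with a symbol. It was 0.185 over the 972 genes whose symbol came only from the authors' 18 h comparison, of which 48.4% had an unadjusted p below 0.05. Of all genes tested, 47.1% had a positive value.

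In the list for nitric oxide and the oxidative burst, the 10 of 21 listed genes that could be tested had a median log2 fold change of 0.45, 9 of them positive, with 6 positive and 0 negative values at an unadjusted p below 0.05. NOS2 (ENSBTAG00000006894), the inducible nitric oxide synthase, had 6528, 6966 and 9153 CPM in the high responder group against 4005, 1964 and 3335 CPM in the low responder group. Every high responder library stood above every low responder library, and low 92 was the lowest. The test of NOS2 gave a log2 fold change of 1.28 (adjusted p = 0.0944, SE 0.28). On the scale of TPM, which allows levels to be compared between genes, the means were 2388 in the high and 1123 in the low responder group. NOS2 makes the product by which the cows had been classified. HMOX1 (ENSBTAG00000015582), heme oxygenase 1, had 49.3, 113 and 106 CPM in the high and 32.9, 36.0 and 27.4 CPM in the low responder libraries. HMOX1 had a log2 fold change of 1.48 (adjusted p = 0.0899, SE 0.30). High 91 was the nearest of the high responder libraries to the low responder group.

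Of the cytosolic subunits of the NADPH oxidase, NCF1 (ENSBTAG00000003305) had 349, 356 and 366 CPM in high and 238, 255 and 246 CPM in low responders. For NCF1, the log2 fold change was 0.53 (adjusted p = 0.0803, SE 0.10). Its spread within each group was small, with an SD of 8.61 CPM in the high and 8.64 CPM in the low responder group. NCF4 (ENSBTAG00000007531) had 21.2, 46.3 and 37.3 CPM in the high responder group against 7.42, 8.52 and 21.0 CPM in the low responder group. The test of NCF4 gave a log2 fold change of 1.505 (adjusted p = 0.15, SE 0.44). CYBB (ENSBTAG00000019953), the catalytic subunit, was one of the most abundant members, with 4156, 4614 and 4674 CPM in the high and 4029, 3597 and 4460.4 CPM in the low responder libraries, and its groups overlapped. CYBB had a log2 fold change of 0.15 (adjusted p = 0.602, SE 0.14). ACOD1 (ENSBTAG00000008259), which makes the antibacterial metabolite itaconate, had 2689, 2333 and 3135 CPM in high and 1824, 1291 and 1910.2 CPM in low responders. For ACOD1, the log2 fold change was 0.70 (adjusted p = 0.134, SE 0.19). GCH1 (ENSBTAG00000040151), the first enzyme on the way to the cofactor of nitric oxide synthase, had a log2 fold change of 0.36 and an adjusted p of 0.164.

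For cytokines, 5 of the 8 genes tested, out of 22 listed, had a positive log2 fold change, with a median of 0.28, and 2 positive and 0 negative ones had an unadjusted p below 0.05. IL1B (ENSBTAG00000001321) had 10068, 6553 and 9729.7 CPM in the high responder group against 4139.7, 1665 and 4944 CPM in the low responder group. The test of IL1B gave a log2 fold change of 1.29 (adjusted p = 0.158, SE 0.39). Its groups did not overlap, and low 92 stood apart from both other low responder libraries. IL6 (ENSBTAG00000014921) was present at a low level, with 8.82, 15.8 and 1.66 CPM in the high and 0.824, 0.330 and 1.65 CPM in the low responder libraries. IL6 had a log2 fold change of 3.23 (adjusted p = 0.123, SE 0.83). High 94, at 1.66 CPM, was level with low 94, at 1.65 CPM, so that the difference rested on high 91 and high 93. Without high 91 the median of the list was 0.13. The genes for the growth factors CSF1 and CSF2 and for LIF, IL18, IL36G and LTA overlapped between the groups.

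For chemokines, 8 of 21 listed genes could be tested, 7 had a positive log2 fold change and the median was 0.79, and an unadjusted p below 0.05 was reached by 5 with a positive and 1 with a negative value. The neutrophil attractant genes CXCL8 (ENSBTAG00000019716) and CXCL2 (ENSBTAG00000027513) were among the most abundant transcripts. CXCL8 had 16023, 13853 and 15312 CPM in high and 7842, 5783 and 10333 CPM in low responders. For CXCL8, the log2 fold change was 0.92 (adjusted p = 0.116, SE 0.23). CXCL2 had 11638, 9339.6 and 9597 CPM in the high responder group against 6533, 4704 and 7519.8 CPM in the low responder group. The test of CXCL2 gave a log2 fold change of 0.70 (adjusted p = 0.153, SE 0.21). In both genes all high responder libraries stood above all low responder libraries.

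The genes for macrophage inflammatory proteins showed the same order. CCL4 (ENSBTAG00000025257) had 3765, 3132 and 3743 CPM in the high and 1861, 1113 and 1916 CPM in the low responder libraries. CCL4 had a log2 fold change of 1.12 (adjusted p = 0.0889, SE 0.22). CCL3 (ENSBTAG00000025250) had 9488, 6863 and 8962 CPM in high and 5315, 3674 and 4743 CPM in low responders. For CCL3, the log2 fold change was 0.88 (adjusted p = 0.106, SE 0.20). CXCL16, a scavenger receptor as well as a chemokine, had a log2 fold change of 0.63 and an adjusted p of 0.129. CCL5 (ENSBTAG00000007191) had the highest mean TPM of the 8 chemokine genes tested and overlapped, with 7096, 4605 and 5987 CPM in the high responder group against 6698, 4219.6 and 3842 CPM in the low responder group. The test of CCL5 gave a log2 fold change of 0.26 (adjusted p = 0.621, SE 0.26). CCL17 (ENSBTAG00000001191), a T cell attractant typical of alternatively activated macrophages, had its high values in low responders, at a low level, with 0.460, 1.35 and 0.829 CPM in the high and 4.12, 9.18 and 2.65 CPM in the low responder libraries. CCL17 had a log2 fold change of -2.59 (adjusted p = 0.106, SE 0.59).

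For bacterial sensing, the 8 of 25 listed genes that could be tested had a median log2 fold change of 0.62, 7 of them positive, with 5 positive and 0 negative values at an unadjusted p below 0.05. TLR2 (ENSBTAG00000008008), a receptor for bacterial lipoproteins, had 496, 533 and 531 CPM in high and 287, 203 and 332 CPM in low responders. For TLR2, the log2 fold change was 0.92 (adjusted p = 0.0842, SE 0.18). CD14 (ENSBTAG00000015032), the co-receptor that hands lipopolysaccharide to TLR4, had 285, 377 and 336 CPM in the high responder group against 171, 75.8 and 192 CPM in the low responder group. The test of CD14 gave a log2 fold change of 1.19 (adjusted p = 0.129, SE 0.32). Low 92 was the lowest library for both, as it was for 7 of the 8 members. TLR4 itself had a log2 fold change of 0.36 and NOD2, a cytosolic sensor of peptidoglycan, one of 0.88, at adjusted p of 0.204 and 0.108. Left out alone, high 94 or low 92 brought the members with a positive value and an unadjusted p below 0.05 from 5 to 3.

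Among NF-kB components and their feedback regulators, 13 of the 14 genes tested, out of 28 listed, had a positive log2 fold change, with a median of 0.66, and 9 positive and 0 negative ones had an unadjusted p below 0.05. TNFAIP2 (ENSBTAG00000035995) had 70.3, 58.1 and 66.4 CPM in the high and 44.4, 33.8 and 36.1 CPM in the low responder libraries. TNFAIP2 had a log2 fold change of 0.77 (adjusted p = 0.0803, SE 0.14). BIRC3 (ENSBTAG00000024918), a ubiquitin ligase of the pathway, had 537, 605 and 699 CPM in high and 375, 302 and 387 CPM in low responders. For BIRC3, the log2 fold change was 0.79 (adjusted p = 0.0816, SE 0.15). IKBKE, a kinase of the pathway, and TNIP1, one of its brakes, had log2 fold changes of 0.98 and 0.70. High 94 was the highest of the 6 libraries in 12 of the 14 genes and low 92 the lowest in 10. Without high 94 the median was 0.45, and 9 members had an unadjusted p below 0.05, as many as with it.

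In the inflammasome list, 6 of 17 listed genes could be tested, 6 had a positive log2 fold change and the median was 0.60, and an unadjusted p below 0.05 was reached by 4 with a positive and 0 with a negative value. NLRP3 (ENSBTAG00000001273), the sensor that drives caspase-1 activation, had 337, 360.1 and 473 CPM in the high responder group against 242, 187 and 248 CPM in the low responder group. The test of NLRP3 gave a log2 fold change of 0.79 (adjusted p = 0.0983, SE 0.17). NAIP (ENSBTAG00000003326), a receptor for flagellin and secretion system proteins, had 423, 446 and 525 CPM in the high and 299, 217 and 330.0 CPM in the low responder libraries. NAIP had a log2 fold change of 0.72 (adjusted p = 0.114, SE 0.18). In both, the highest library was high 94 and the lowest low 92.

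The interferon-stimulated genes had the lowest median of the 20 lists, and the 28 of 47 listed genes that could be tested had a median log2 fold change of -0.49, 4 of them positive, with 1 positive and 12 negative values at an unadjusted p below 0.05. IFIT1 (ENSBTAG00000007881), which binds viral RNA, had 143, 103 and 109 CPM in high and 315, 374 and 261 CPM in low responders. For IFIT1, the log2 fold change was -1.42 (adjusted p = 0.0603, SE 0.18). IFITM2 (ENSBTAG00000019017), a membrane protein that restricts virus entry, had 38.7, 11.7 and 15.6 CPM in the high responder group against 129.96, 174 and 109 CPM in the low responder group. The test of IFITM2 gave a log2 fold change of -2.63 (adjusted p = 0.0801, SE 0.43). GBP4 (ENSBTAG00000014529), a guanylate-binding protein, had 17.8, 8.52 and 11.96 CPM in the high and 38.0, 29.0 and 39.3 CPM in the low responder libraries. GBP4 had a log2 fold change of -1.47 (adjusted p = 0.0803, SE 0.26). These 3 genes did not overlap, with all high responder libraries below, which the naming rule had required of IFIT1 and IFITM2.

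The list was not uniform. ISG15 (ENSBTAG00000014707) had 429.7, 149 and 528 CPM in high and 776, 677 and 385 CPM in low responders, with overlap between the groups. For ISG15, the log2 fold change was -0.73 (adjusted p = 0.424, SE 0.45). RSAD2 (ENSBTAG00000016061), the antiviral enzyme viperin, had 311, 93.6 and 413 CPM in the high responder group against 608, 433 and 436 CPM in the low responder group. The test of RSAD2 gave a log2 fold change of -0.86 (adjusted p = 0.369, SE 0.46). High 93 was the lowest of the 6 libraries in most of the list, and low 91 was the highest in 16 of 28 genes. The transcription factor gene IRF1 (ENSBTAG00000031231) was the 1 member with a positive value at an unadjusted p below 0.05, with 1927, 1941 and 2185 CPM in the high and 1415, 1107 and 1269 CPM in the low responder libraries. IRF1 had a log2 fold change of 0.67 (adjusted p = 0.0927, SE 0.14). IFITM3, USP18 and IFI44L had log2 fold changes of -1.94, -1.21 and -1.12, and RTP4, an interferon-induced chaperone, of -1.06. With 1 library left out, the median ran from -0.395 without low 91, where 8 members had a negative value with an unadjusted p below 0.05, to -0.754 without high 94, where 15 did.

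**Figure D4:**
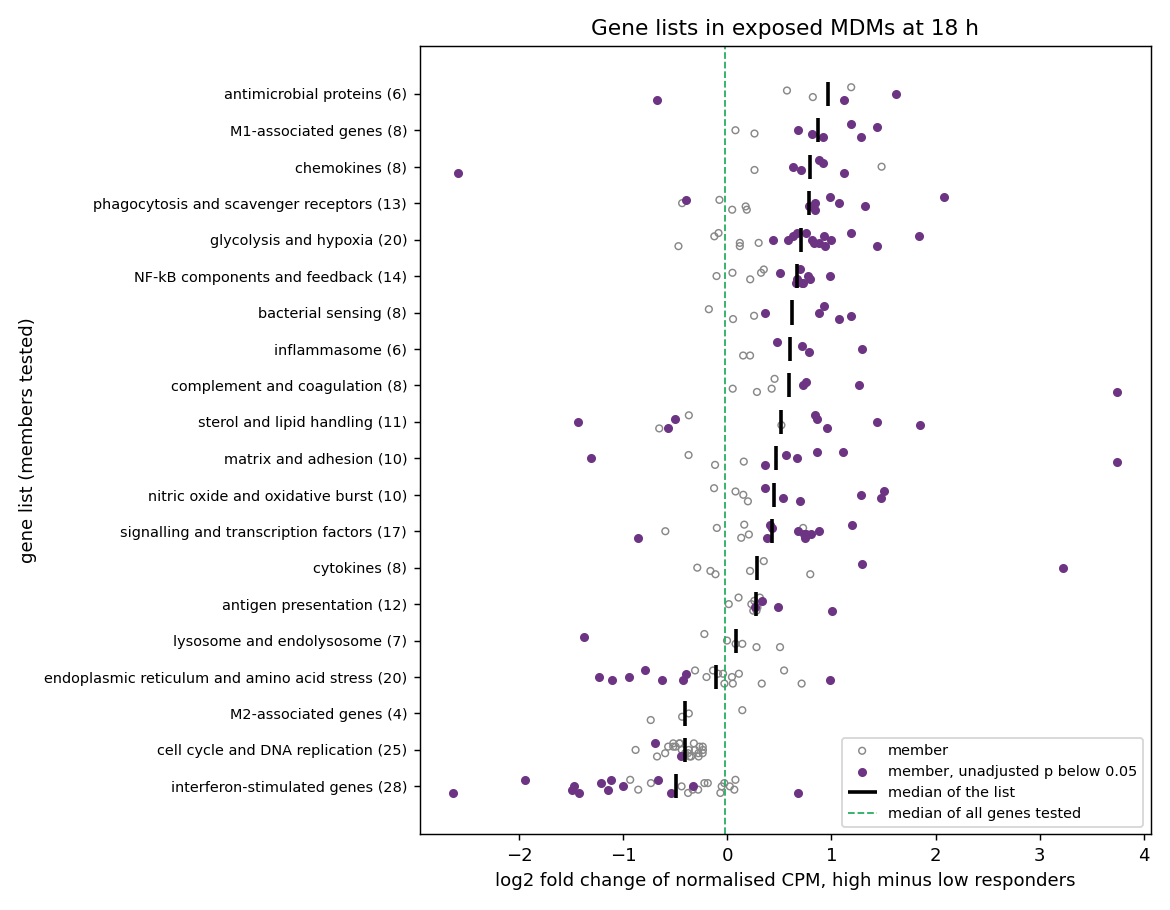
Log2 fold changes, high minus low responders (x axis), of the tested members of 20 gene lists (y axis, members tested in parentheses). Filled points had an unadjusted p below 0.05, black bars are list medians and the dashed line is the median of all genes tested, -0.02; the medians run from -0.49 for interferon-stimulated genes to 0.97 for antimicrobial proteins, which was 0.496 without high 93.

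Among antimicrobial proteins, 5 of the 6 genes tested, out of 16 listed, had a positive log2 fold change, with a median of 0.97, and 2 positive and 1 negative ones had an unadjusted p below 0.05. SLC11A1 (ENSBTAG00000015520), the metal transporter NRAMP1 of the phagosome, had 767, 701 and 548 CPM in high and 292, 204 and 432 CPM in low responders. For SLC11A1, the log2 fold change was 1.12 (adjusted p = 0.112, SE 0.27). The calprotectin subunits varied widely between cows. S100A9 (ENSBTAG00000006505) had 481, 1199 and 569 CPM in the high responder group against 205, 95.1 and 433 CPM in the low responder group. The test of S100A9 gave a log2 fold change of 1.62 (adjusted p = 0.195, SE 0.56). Without high 93 its log2 fold change was 1.10. S100A8 had 633, 1754 and 984 CPM in the high and 359.8, 172 and 947 CPM in the low responder libraries, with overlap, and its log2 fold change was 1.19 (adjusted p = 0.348, SE 0.61). S100A12 had 983, 2364 and 673 CPM in high and 560.2, 302 and 1840.5 CPM in low responders, and its sign turned without high 93, from 0.57 to -0.12. The outermost libraries were high 93 and low 92, and low 94 reached into the range of the high responder libraries for S100A8 and S100A12. Without high 93 the median of the list was 0.496, with 1 positive member at an unadjusted p below 0.05, and without low 94 it was 1.55, with 4.

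For antigen presentation, 12 of 24 listed genes could be tested, 12 had a positive log2 fold change and the median was 0.27, and an unadjusted p below 0.05 was reached by 4 with a positive and 0 with a negative value. The other 11 members had log2 fold changes between 0.01 and 0.48, whereas CD274 (ENSBTAG00000000095), the checkpoint ligand PD-L1, had 532, 551 and 706 CPM in the high responder group against 411, 181 and 297 CPM in the low responder group. CD274 had a log2 fold change of 1.01 (adjusted p = 0.136, SE 0.28). Without high 93 or without low 92, 1 member instead of 4 had an unadjusted p below 0.05, and without low 91 it was 7. For genes that the study lists as M1-associated, the 8 of 8 listed genes that could be tested had a median log2 fold change of 0.87, 8 of them positive, with 6 positive and 0 negative values at an unadjusted p below 0.05. The lowest of the 6 libraries was low 92 in 7 of these 8 genes. With 1 library left out, the median ran from 0.674 without low 92 to 1.06 without low 94. Without low 92 or without high 93, 7 members were positive. CD38 (ENSBTAG00000013569), an NAD-consuming surface enzyme, had 129, 169.5 and 148 CPM in the high and 62.3, 16.8 and 85.4 CPM in the low responder libraries. For CD38, the log2 fold change was 1.44 (adjusted p = 0.189, SE 0.49). That list and the M2-associated one were chosen by the study on these samples and are not independent evidence of their direction. For the M2-associated genes, 1 of the 4 genes tested, out of 5 listed, had a positive log2 fold change, with a median of -0.40, and 0 positive and 0 negative ones had an unadjusted p below 0.05. GPNMB (ENSBTAG00000000604) had 253, 95.1 and 260.0 CPM in high and 234, 350.5 and 427 CPM in low responders, with overlap. The test of GPNMB gave a log2 fold change of -0.74 (adjusted p = 0.353, SE 0.38). MSR1 (ENSBTAG00000002885), a scavenger receptor, had 47.6, 48.2 and 24.5 CPM in the high responder group against 52.5, 51.9 and 58.7 CPM in the low responder group. MSR1 had a log2 fold change of -0.43 (adjusted p = 0.384, SE 0.24).

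In the list for glycolysis and hypoxia, 20 of 34 listed genes could be tested, 17 had a positive log2 fold change and the median was 0.71, and an unadjusted p below 0.05 was reached by 14 with a positive and 0 with a negative value. TPI1 (ENSBTAG00000019782), triosephosphate isomerase, had 531, 579 and 565 CPM in the high and 309.8, 261 and 368 CPM in the low responder libraries. For TPI1, the log2 fold change was 0.84 (adjusted p = 0.0803, SE 0.15). PFKFB3 (ENSBTAG00000008401), which makes the strongest activator of phosphofructokinase, had 532, 820.5 and 1325 CPM in high and 243, 131 and 372 CPM in low responders. The test of PFKFB3 gave a log2 fold change of 1.84 (adjusted p = 0.111, SE 0.44). LDHA (ENSBTAG00000008683), lactate dehydrogenase A, had 1579, 2457 and 1628 CPM in the high responder group against 677, 638 and 1172 CPM in the low responder group. LDHA had a log2 fold change of 1.19 (adjusted p = 0.111, SE 0.28). All 3 genes had every high responder library above every low responder library.

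The lactate exporter gene SLC16A3 (ENSBTAG00000017461) had 158, 106 and 165 CPM in the high and 49.0, 32.7 and 76.3 CPM in the low responder libraries. For SLC16A3, the log2 fold change was 1.44 (adjusted p = 0.0937, SE 0.31). P4HA1, a prolyl hydroxylase of collagen, had a log2 fold change of 0.76. Of the glycolytic enzymes proper, PKM, ENO1, ENO3, PGK1 and GAPDH did not overlap, with log2 fold changes between 0.44 and 1.00, whereas PFKM, PFKP and the glucose transporter gene SLC2A1 had values between -0.47 and 0.12. Low 92 was the lowest library in 14 of the 20 genes. Without it the median was 0.59, and 13 members had a positive value with an unadjusted p below 0.05. Such members were 12 without high 91, high 93 or low 91, 14 without high 94 and 15 without low 94.

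For sterol and lipid handling, the 11 of 31 listed genes that could be tested had a median log2 fold change of 0.52, 6 of them positive, with 5 positive and 3 negative values at an unadjusted p below 0.05. CYP51A1 (ENSBTAG00000001992) of cholesterol synthesis had 17.7, 10.04 and 30.6 CPM in high and 7.10, 6.80 and 7.48 CPM in low responders. The test of CYP51A1 gave a log2 fold change of 1.44 (adjusted p = 0.122, SE 0.37). ACAT2 (ENSBTAG00000002827), which makes acetoacetyl-CoA at the start of that pathway, had 109, 96.7 and 142 CPM in the high responder group against 73.5, 47.2 and 70.5 CPM in the low responder group. ACAT2 had a log2 fold change of 0.86 (adjusted p = 0.112, SE 0.21). NR1H3 (ENSBTAG00000010681), the sterol sensor LXR alpha, and ABCA1 (ENSBTAG00000020661), the cholesterol exporter, had log2 fold changes of 0.96 and 0.84. LPL (ENSBTAG00000012855), lipoprotein lipase, had 132, 213 and 38.9 CPM in the high and 271, 412 and 357 CPM in the low responder libraries. For LPL, the log2 fold change was -1.43 (adjusted p = 0.209, SE 0.52). PPARG, the fatty acid receptor, had a log2 fold change of -0.57. The median of the list was 0.301 without high 94, 0.328 without low 92 and 0.796 without low 91. Of members with a negative value, 0 instead of 3 had an unadjusted p below 0.05 without low 92, and 1 did without high 91 or low 94.

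For phagocytosis and scavenger receptors, 10 of the 13 genes tested, out of 30 listed, had a positive log2 fold change, with a median of 0.78, and 7 positive and 1 negative ones had an unadjusted p below 0.05. SIRPA (ENSBTAG00000007213), the receptor of the CD47 signal, had 1251, 1312 and 1650.0 CPM in high and 679, 586 and 859 CPM in low responders. The test of SIRPA gave a log2 fold change of 0.99 (adjusted p = 0.0803, SE 0.18). FCER1G (ENSBTAG00000024503), the signalling chain of Fc receptors, had 576, 679.9 and 638 CPM in the high responder group against 346, 291 and 419 CPM in the low responder group. FCER1G had a log2 fold change of 0.84 (adjusted p = 0.0804, SE 0.16). The Src family kinase gene LYN had a log2 fold change of 0.78, and all high responder libraries stood above. TREM1 (ENSBTAG00000017593), an amplifier of inflammation, had 83.8, 199 and 46.9 CPM in the high and 19.2, 9.18 and 49.8 CPM in the low responder libraries, with overlap. For TREM1, the log2 fold change was 2.08 (adjusted p = 0.184, SE 0.69).

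For matrix and adhesion, 10 of 28 listed genes could be tested, 7 had a positive log2 fold change and the median was 0.46, and an unadjusted p below 0.05 was reached by 6 with a positive and 1 with a negative value. MMP14 (ENSBTAG00000014824), a membrane-bound metalloproteinase, had 2064, 2356 and 2297 CPM in high and 1192, 1063 and 1454 CPM in low responders. The test of MMP14 gave a log2 fold change of 0.86 (adjusted p = 0.0803, SE 0.15). ADAM8, a related sheddase, had a log2 fold change of 1.11. THBS1 (ENSBTAG00000002006), thrombospondin 1, had 158, 492 and 129 CPM in the high responder group against 9.002, 9.38 and 39.8 CPM in the low responder group. THBS1 had a log2 fold change of 3.74 (adjusted p = 0.0905, SE 0.77). High 93 was the highest, and without it the log2 fold change of THBS1 was 2.89. HAS2, a hyaluronan synthase, had a log2 fold change of -1.31. For complement and coagulation, the 8 of 24 listed genes that could be tested had a median log2 fold change of 0.59, 8 of them positive, with 4 positive and 0 negative values at an unadjusted p below 0.05. THBS1 belongs to both lists. Without low 92 the median of the complement list was 0.393 and 1 member instead of 4 had an unadjusted p below 0.05, which 2 did without high 91, high 93 or low 91, and without low 94 the median was 0.958.

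In the list for endoplasmic reticulum and amino acid stress, 7 of the 20 genes tested, out of 28 listed, had a positive log2 fold change, with a median of -0.11, and 1 positive and 7 negative ones had an unadjusted p below 0.05. The 7 members with a negative value and an unadjusted p below 0.05 were the chaperone genes HSPA5, HSP90B1, CALR and SDF2L1, the disulfide isomerase genes PDIA4 and PDIA6, and CREB3L2, a transcription factor of secretory cells. HSPA5 (ENSBTAG00000007662), the chaperone BiP, had 818, 497 and 477 CPM in the high and 1065, 1334 and 1038 CPM in the low responder libraries. For HSPA5, the log2 fold change was -0.94 (adjusted p = 0.114, SE 0.23). PDIA4 (ENSBTAG00000017143) had 184, 147 and 126 CPM in high and 235, 304 and 253 CPM in low responders. The test of PDIA4 gave a log2 fold change of -0.79 (adjusted p = 0.0937, SE 0.17). CREB3L2 (ENSBTAG00000015802) had 7.98, 5.48 and 5.09 CPM in the high responder group against 12.3, 18.4 and 13.3 CPM in the low responder group. CREB3L2 had a log2 fold change of -1.23 (adjusted p = 0.0861, SE 0.24). In these 3 genes all high responder libraries stood below all low responder libraries. The amino acid response genes of the list, ATF4, ASNS, TRIB3, CHAC1, PSAT1 and SLC7A11, overlapped between the groups. Low 92 was the highest library in 12 of the 20 genes. Without it the median was -0.00798, with 10 positive and 10 negative values, and without low 94 the median was -0.172.

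For the cell cycle and DNA replication, 25 of 38 listed genes could be tested, 0 had a positive log2 fold change and the median was -0.40, and an unadjusted p below 0.05 was reached by 0 with a positive and 2 with a negative value. TYMS (ENSBTAG00000007003), thymidylate synthase, had 7.13, 9.62 and 4.74 CPM in the high and 9.26, 14.3 and 11.4 CPM in the low responder libraries. For TYMS, the log2 fold change was -0.69 (adjusted p = 0.257, SE 0.29). Its groups overlapped. RBL1 (ENSBTAG00000011541), a relative of the retinoblastoma protein, had 15.2, 15.8 and 12.7 CPM in high and 17.8, 20.8 and 21.1 CPM in low responders. The test of RBL1 gave a log2 fold change of -0.45 (adjusted p = 0.175, SE 0.14). High 94 was the lowest library in 20 of the 25 genes, and without it 5 members had positive values and the median was -0.258, as 5 did without low 94, where it was -0.26. The count of negative members with an unadjusted p below 0.05 was 8 without high 93, where the median was -0.618, 5 without low 91, 1 without high 94 and 0 without low 92 or low 94. For the lysosome, the 7 of 36 listed genes that could be tested had a median log2 fold change of 0.08, 4 of them positive, with 0 positive and 1 negative values at an unadjusted p below 0.05. With 1 library left out, its median ran from -0.0204 without high 94 to 0.154 without low 94. Its member with an unadjusted p below 0.05 was TPCN1, a calcium channel gene, at 0.12 to 1.19 CPM, and only without high 91 did 1 member with a negative value have such a p in the fits with a library left out.

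Among signalling and transcription factors, 14 of the 17 genes tested, out of 33 listed, had a positive log2 fold change, with a median of 0.43, and 10 positive and 1 negative ones had an unadjusted p below 0.05. CEBPD (ENSBTAG00000046307), a factor of the acute phase, had 109, 134 and 144 CPM in the high responder group against 75.6, 61.8 and 83.5 CPM in the low responder group. CEBPD had a log2 fold change of 0.80 (adjusted p = 0.0816, SE 0.15). DUSP6 (ENSBTAG00000004587), a phosphatase that turns off ERK, had 109, 107 and 89.9 CPM in the high and 45.5, 28.6 and 59.5 CPM in the low responder libraries. For DUSP6, the log2 fold change was 1.20 (adjusted p = 0.0905, SE 0.25). IRF8 (ENSBTAG00000017824), a factor of the monocyte lineage, had 89.2, 97.8 and 126 CPM in high and 249.9, 202 and 116 CPM in low responders. The test of IRF8 gave a log2 fold change of -0.86 (adjusted p = 0.172, SE 0.27). Low 94 lay within the range of the high responder libraries for IRF8, so that the groups overlapped. Low 92 was the lowest library in 11 of the 17 genes, and without it 6 members instead of 10 had a positive value with an unadjusted p below 0.05.

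The transcripts that dominated the exposed wells were described by mean TPM, a choice made after the values were seen. Among genes with a symbol, FTH1, CCL5, CCL3, CXCL2, CXCL8, B2M, FTL and CCL4 had the highest means, from 24005 TPM for FTH1 down to 6729 TPM for CCL4. FTH1 (ENSBTAG00000011184), the heavy chain of the iron store ferritin, had 14341, 21102 and 19508 CPM in high and 8132, 6209 and 9432 CPM in low responders. Its groups did not overlap, and its log2 fold change was 1.21 (adjusted p = 0.0813, SE 0.23). FTL, the light chain, had 5559, 5755 and 4938 CPM in high and 4462, 5136 and 4860.1 CPM in low responders, with overlap.

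The control wells of the same cows give the phenotypes without bacteria, and the 2 comparisons share cows but no library. In control wells, 17 of 11356 genes (0.15%) were DE, 4 higher (0.0352%) and 13 lower (0.114%) in the high responder group. The difference between exposed and control wells was itself tested in the 12 libraries of 18 h with a term for each cow, and 190 of 11759 genes (1.62%) passed both thresholds. ENSBTAG00000037605 already had a log2 fold change of 7.11 (adjusted p = 0.00826, SE 0.46) in control wells and was DE there too. Its change was -0.15 (adjusted p = 0.949, SE 0.78). In control wells ENSBTAG00000009768 had -2.86 (adjusted p = 0.056, SE 0.41) and ENSBTAG00000047824 -2.78 (adjusted p = 0.0625, SE 0.46). Neither was DE there, and the groups did not overlap. Their changes were -0.24 (adjusted p = 0.818, SE 0.43) and -0.08 (adjusted p = 0.959, SE 0.54). ENSBTAG00000047766 was not tested in control wells, with means of 0.816 CPM in high and 0.426 CPM in low responders. Its change was 0.79 (adjusted p = 0.364, SE 0.39).

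TBC1D9 had a log2 fold change of 0.07 (adjusted p = 0.725, SE 0.10) in control wells, CD55 0.32 (adjusted p = 0.429, SE 0.22) and NOS2 0.13 (adjusted p = 0.84, SE 0.30). The change was 0.97 (adjusted p = 0.0142, SE 0.15) for TBC1D9 and 1.19 (adjusted p = 0.0314, SE 0.21) for CD55, so that both differences between the phenotypes were larger in exposed wells, and for NOS2 it was 1.17 (adjusted p = 0.0592, SE 0.26). CXCL8, CCL3 and CCL4 had control values of -0.26, -0.09 and -0.08, and their changes of 1.12, 1.03 and 1.26 had adjusted p between 0.0664 and 0.149.

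The interferon-stimulated genes had a median log2 fold change of -1.498 in control wells against -0.49 in exposed wells. IFITM2 had -3.33 (adjusted p = 0.0457, SE 0.33) and UCHL1 -2.22 (adjusted p = 0.0457, SE 0.27) in control wells, where both were DE and lower in the high responder group. IFIT1 had -2.61 (adjusted p = 0.0702, SE 0.55) there. In 10 members of the list the change passed the test, among them ISG15, RSAD2 and IRF1, against 7.21% of the genes with a symbol. That share is not a neutral background. Symbols came in part from the authors' comparison of the same libraries corrected for control wells, which asked much the same question. Counts of members that passed are therefore description only. The antimicrobial list also had a negative median in control wells, -1.56, against 0.97 in exposed wells (0.496 without high 93), and 4 of its members passed the test of the change. The cell cycle list had a median of 0.33 in control wells and -0.40 in exposed wells, and 3 members passed.

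**Figure D5:**
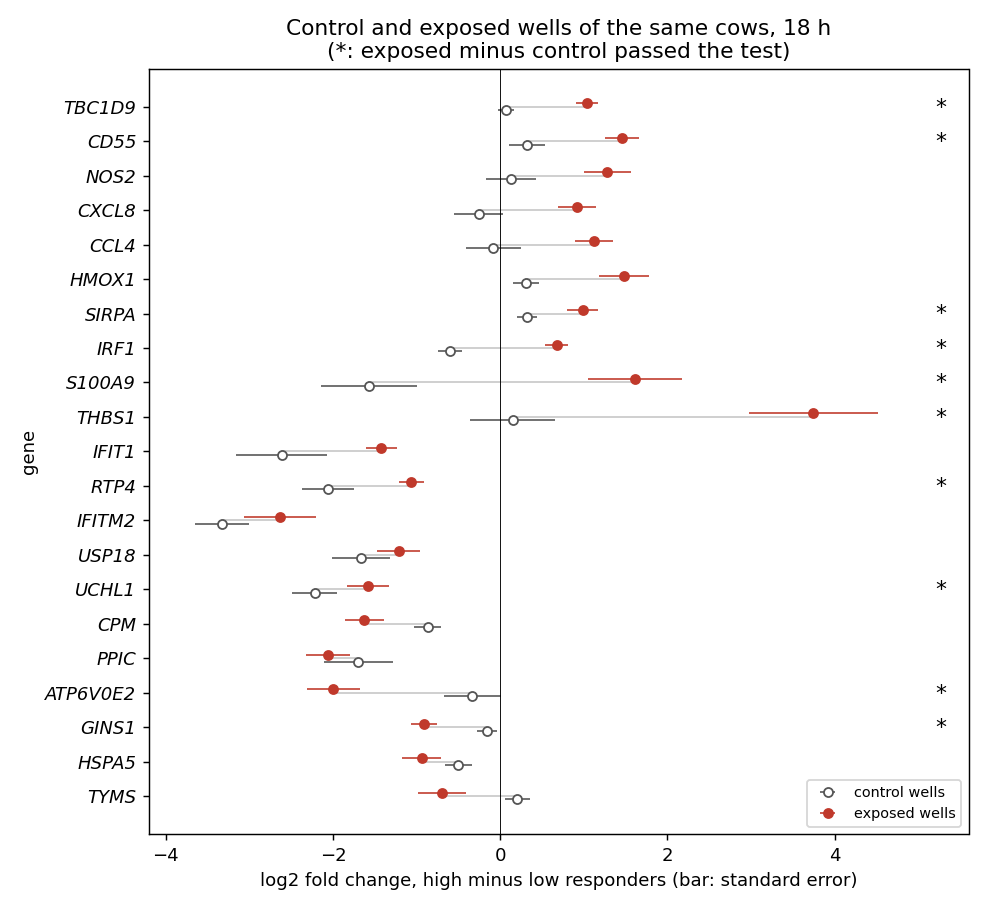
Log2 fold changes, high minus low responders (x axis), of 21 genes (y axis) in control wells (open) and exposed wells (red) of 18 h, each with its standard error. Asterisks mark genes whose exposed minus control difference passed both thresholds, such as TBC1D9 at 0.07 in control and 1.04 in exposed wells.

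At 3 h of exposure, 9 of 10726 genes (0.0839%) were DE between the phenotypes. The log2 fold change was 1.02 (adjusted p = 0.121, SE 0.19) for TBC1D9, 0.63 (adjusted p = 0.401, SE 0.29) for NOS2 and -0.67 (adjusted p = 0.611, SE 0.55) for IFIT1 at that time. That of ENSBTAG00000037605 was 7.94, and it was DE at both times. The change with time was not tested.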

How the data were processed

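RNA was sequenced from exposed and control wells with a stranded mRNA kit. The authors trimmed read pairs with Trimmomatic, checked them with FastQC 0.11.5, mapped them with STAR to the UMD 3.1 genome and deposited, per library and gene, RSEM expected counts, TPM and an effective length, one library per file. The authors' own comparison was run with DESeq2 1.22.2. Expected counts were rounded and tested with edgeR 4.0.16 (R 4.3.3) after filterByExpr and TMM scaling, 3 high against 3 low responder libraries without covariates, and p-values were Benjamini-Hochberg adjusted over all genes tested. DESeq2 1.42.0 and limma 3.58.1 were alternatives. The exposed minus control test used 12 libraries and a term for each cow. Deposited TPM values were used only to compare levels between genes.

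RSEM divides reads between similar genes, so values of IFITM2 and IFITM3, CCL3 and CCL4 or the S100A genes carry that uncertainty. Labels give no cultures beyond the library codes, so p-values measure the spread between these libraries, and an exact permutation test of 3 against 3 could not go below 0.1. Tested on simulated counts with 200 changed genes among 11077, the main test recovered 93 of 100 genes changed 4-fold and 48 of 100 changed 2-fold. It also called 11 genes that had not been changed. The counts were drawn independently at the estimated spread, and changes were placed only in genes above a count limit. Differences between cows that many genes share were not simulated, so these shares do not measure the sensitivity in the real libraries.

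No genome or annotation of the build was used, so positions and sequences are not given. Symbols came from supplementary gene tables, held in part. Named genes were, per direction, up to 12 called genes or, where fewer were called, the non-overlapping genes of smallest p with a symbol, with a mean of at least 10 counts in the higher group. From each list the members of smallest p and its defining genes were named. The members and lists were chosen with earlier results of these data known. Results for some genes are not reported here. No other series' columns were in the files.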

Additional observations from a re-analysis of the deposited data

Results flagged for a closer look

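For 26 of the genes named, the difference between high and low responders was not the same in exposed and control wells of 18 h. In each, edgeR's quasi-likelihood test of exposed minus control, with a term for each of the 6 cows, gave a Benjamini-Hochberg adjusted p below 0.05 and a fold above 1.5. The values that follow are that change in the log2 fold change, high minus low responders, and adjusted p ran from 0.00023 for S100A12 to 0.0464 for FCER1G. These genes were named for their values in exposed wells, which are part of the test, and genes with a symbol passed it more often than all genes, at 7.21% against 1.62%. Symbols came in part from the authors' own comparison of these libraries corrected for control wells, so 7.21% is not a neutral background.

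Among calprotectin and related genes the changes were S100A9 at 3.15, S100A8 at 3.13 and S100A12 at 2.23, and thrombospondin 1 followed with THBS1 at 3.81. For the 3 S100A genes the high responder group had negative log2 fold changes in control wells and positive ones in exposed wells, where S100A12 turned negative without high 93. Interferon-related genes changed by positive amounts, with ISG15 at 1.60, RSAD2 at 1.97, IRF1 at 1.27 and RTP4 at 1.06. A positive change need not be a higher level in the high responder group. In exposed wells ISG15, RSAD2 and RTP4 still had negative log2 fold changes, of -0.73, -0.86 and -1.06. Chemokine genes were among them, with CCL5 at 2.49 and CXCL16 at 0.75. CCL5 had a log2 fold change of only 0.26 in exposed wells, where its groups overlapped. Membrane receptors and their partners followed, with CD274 at 1.42, CD55 at 1.19, SIRPA at 0.67 and FCER1G at 0.62. Genes of lipid handling were ABCA1 at 1.01 and LPL at -0.69. Sensing and phagosome genes were NAIP at 1.11, SLC11A1 at 0.97 and NCF4 at 1.41. The remaining positive changes were TBC1D9 at 0.97, ELL2 at 0.71 and UCHL1 at 0.67. UCHL1 was lower in the high responder group in both, at -2.22 in control and -1.58 in exposed wells. Further negative changes were RBL1 at -0.87 and GINS1 at -0.76 of the cell cycle and replication and TPCN1 at -2.56 and ATP6V0E2 at -1.62, both genes of low level. What underlies these changes was not tested.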

How the results depend on the processing

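The number of DE genes in exposed wells differed between models, filters and thresholds. Against 5 calls, 3 higher and 2 lower in the high responder group, DESeq2 gave 641 (406 and 235), a fit of 12 libraries in 4 groups 301 (197 and 104), a fit of 24 libraries in 8 groups 117 (85 and 32), no filter on low counts 41 (26 and 15), an adjusted p below 0.1 gave 231 (147 and 84), libraries thinned to the smallest total 3 (1 lower), limma-voom 0, with 2037 genes at an unadjusted p below 0.05, and a mean of at least 50 counts left 1 lower call. The cause was not tested. All 5 calls were shared with DESeq2 and with the fits of 12 and 24 libraries. Library totals alone, an alternative chosen after seeing the data, gave 4 lower calls, moved the median log2 fold change of all genes to -0.19, and split the genes at an unadjusted p below 0.05 into 582 with a positive and 2262 with a negative value. With upper-quartile factors that split was 898 and 1220. Directions are therefore relative to the TMM scale. With 1 library left out, calls ranged from 0 to 52 (0 to 38 higher, 0 to 14 lower) in exposed wells, from 0 to 129 (0 to 42 higher, 0 to 87 lower) in control wells and from 0 to 72 (0 to 43 higher, 0 to 29 lower) at 3 h. In control wells DESeq2 gave 692 (304 and 388) and no filter 219 (74 and 145), at 3 h they gave 283 (184 and 99) and 51 (36 and 15), and for exposed minus control DESeq2 gave 395 (328 and 67).

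The sign turned for CYBB with library totals alone (-0.0150), for S100A12 under the replicate block (-0.32) and without high 93, and for the lysosome median with library totals alone (-0.0917) and without high 94. With 1 library left out, S100A12 ranged from -0.12 to 1.65 and the lysosome median from -0.0204 to 0.154. Libraries with the same number come from different cows, and their deviations correlated at -0.0648 for 91 and -0.159 for 94. Between phenotypes, libraries of unlike number ranged from -0.279 to 0.306. These few pairs cannot tell whether libraries of a number share a preparation, which was not tested. With the number as a replicate block, 4 genes were called, 1 higher and 3 lower, and 1 of the 5 calls was shared. Only 91 and 94 occur in both phenotypes, so only the libraries of these numbers bear on the contrast in that fit. Depth limits genes of a few CPM, such as IL6, CCL17 and TPCN1.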
